A study of Mus musculus with 18 samples.

Results

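AP-1 is a family of transcription factors that bind DNA as pairs and carry a basic leucine zipper (bZIP), the stretch through which 2 subunits join and grip the double helix. FOS proteins (Fos, Fosb, Fosl1, Fosl2) can bind only with a partner, usually a JUN protein (Jun, Junb, Jund), whereas JUN proteins can also pair with each other. Many AP-1 genes are immediate early genes, transcribed within minutes of a growth signal, wound or dose of ultraviolet light and silenced again soon after, and their messages are short-lived. In the epidermis AP-1 takes part in keratinocyte proliferation, in the switch to differentiation and in the response to ultraviolet light. The 10 genes described here are these 7 subunits together with Atf3, a stress-induced bZIP factor that often represses, Maff, a small MAF protein that lacks an activation domain of its own, and Egr1, a zinc finger factor that is induced by the same signals but is not a bZIP protein.

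The genes were chosen by name, and each was matched to 1 of 14521 named genes, so that 10 of 10 were measured. The data are mRNA sequencing of female SKH-1E Hairless mice, an outbred strain without a functional Hairless gene that is prone to skin tumours under ultraviolet radiation. All 6 mice were littermates and had been chronically irradiated with a solar simulator from young adulthood. Each gave chronically irradiated skin without a lesion (CHR), 1 benign papilloma (PAP) and 1 cutaneous squamous cell carcinoma (SCC), with n = 6 in each group and 18 libraries in all. There was therefore no unirradiated skin, CHR was itself irradiated, and tissue was taken after irradiation had stopped, so that the acute response to a dose was not sampled. Normalised reads are recovered reads divided by the size factor of the library, and depth was 15.4 to 21.0 M reads per library.

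Whole tissue was sequenced, and its cell makeup moved with the groups. The summed normalised reads of 20 keratinocyte genes ranged from 364389 to 549693 in CHR, from 860636 to 1379490 in PAP and from 357072 to 937504 in SCC, and 16 of the 20 rose in PAP vs CHR. Skeletal muscle genes summed to 416480 to 626483 in CHR, 363 to 31296 in PAP and 555 to 205669 in SCC, and 19 of 20 fell in PAP vs CHR. Of the other lists, 11 of 12 adipocyte, 10 of 12 dermal fibroblast, 10 of 11 myeloid, 10 of 11 T cell and 10 of 10 sebaceous gland genes fell in PAP vs CHR, whereas 1 of 10 endothelial genes rose and 5 fell, and 2 of 10 neutrophil genes rose and 1 fell. Every measured gene of these lists had reads in some library. The part of this shift in the results below was not tested, and fewer cells of a type cannot be told apart from less RNA per cell. As a second scale, each gene was also measured relative to the mean of the 20 keratinocyte genes, on which the median change of all genes was -1.26 on the log2 scale in PAP vs CHR, -0.72 in SCC vs CHR and 0.54 in SCC vs PAP, compared with 0.00, -0.02 and -0.02 before. For PAP vs CHR, that scale placed 0.585% of all genes significantly higher and 91.6% lower; for SCC vs CHR it placed 1.23% higher and 65.3% lower.

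Many of these genes are controlled at their promoters by signals that reach ATF/CREB and AP-1 sites, so the windows of Junb and Atf3, which moved in opposite directions, and of Fos, which varied widely between mice, are shown. Windows at RefSeq start sites for GRCm38 were searched for 8 of the 10 genes, with several starts for Maff, and the remaining genes were not searched. Each window runs from 250 bases before to 50 bases after the start, and capitals mark TGACG, the core of the ATF/CREB site, on either strand. The windows are chr8:84978699-84978998 on the minus strand for Junb, chr1:191183284-191183583 on the minus strand for Atf3 and chr12:85473640-85473939 on the plus strand for Fos.
Junb: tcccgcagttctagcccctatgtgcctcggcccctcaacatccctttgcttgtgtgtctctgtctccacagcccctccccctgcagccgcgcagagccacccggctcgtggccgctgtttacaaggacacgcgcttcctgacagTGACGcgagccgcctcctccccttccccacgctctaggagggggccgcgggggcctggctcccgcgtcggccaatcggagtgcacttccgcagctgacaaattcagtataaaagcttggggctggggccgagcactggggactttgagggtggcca
Atf3: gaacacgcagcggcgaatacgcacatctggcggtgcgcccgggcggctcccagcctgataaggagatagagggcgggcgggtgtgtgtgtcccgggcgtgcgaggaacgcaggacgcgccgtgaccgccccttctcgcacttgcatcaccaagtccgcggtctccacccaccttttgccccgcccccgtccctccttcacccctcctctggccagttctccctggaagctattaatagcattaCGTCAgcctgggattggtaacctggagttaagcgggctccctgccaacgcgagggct
Fos: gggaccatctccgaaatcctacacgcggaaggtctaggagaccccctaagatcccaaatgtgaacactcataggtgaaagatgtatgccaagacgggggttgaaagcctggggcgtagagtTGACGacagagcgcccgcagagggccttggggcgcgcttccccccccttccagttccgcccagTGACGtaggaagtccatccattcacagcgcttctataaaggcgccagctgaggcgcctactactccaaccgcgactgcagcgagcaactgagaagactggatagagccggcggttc
TGACG lay 106 bases before the start in Junb, 7 bases before it in Atf3 and 129 and 66 bases before it in Fos. It was found in 6 of the 10 windows of the 8 genes, against 20.8% of the 32851 windows searched, called all windows below. These belong to 5 of the 8 genes (Fos, Fosb, Junb, Atf3 and Maff). The AP-1 site TGANTCA, searched on both strands as were all motifs and not containing TGACG, was in 7.81% of all windows and in 0 of the 10 windows of the 8 genes, and the full palindrome TGACGTCA, which contains TGACG, was in 1.79% of all and in Maff. TATAAA was in 13.6% of all windows and in those of Fos and Junb. The CArG box, which is CC and GG around a stretch of A or T, was in 1.63% of all windows and in 0 of the 10. These matches describe letters within the window and are not evidence of binding.

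Features of the messages were also common to the genes. Jun, Junb and Jund each lay on 1 exon, as do 2.74% of genes with a coding transcript, and the annotated 3′ untranslated region of 10 of 10 genes held the pentamer ATTTA, which occurs in AU-rich elements that shorten message life, against 64.5% of 13682 genes. At least 3 copies were present in 5 of 10, against 33.3% of genes. The counts were not adjusted for length, and the median 3′ untranslated region had 1204 bases in the 10 genes and 939 in all genes.

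**Figure D1:**
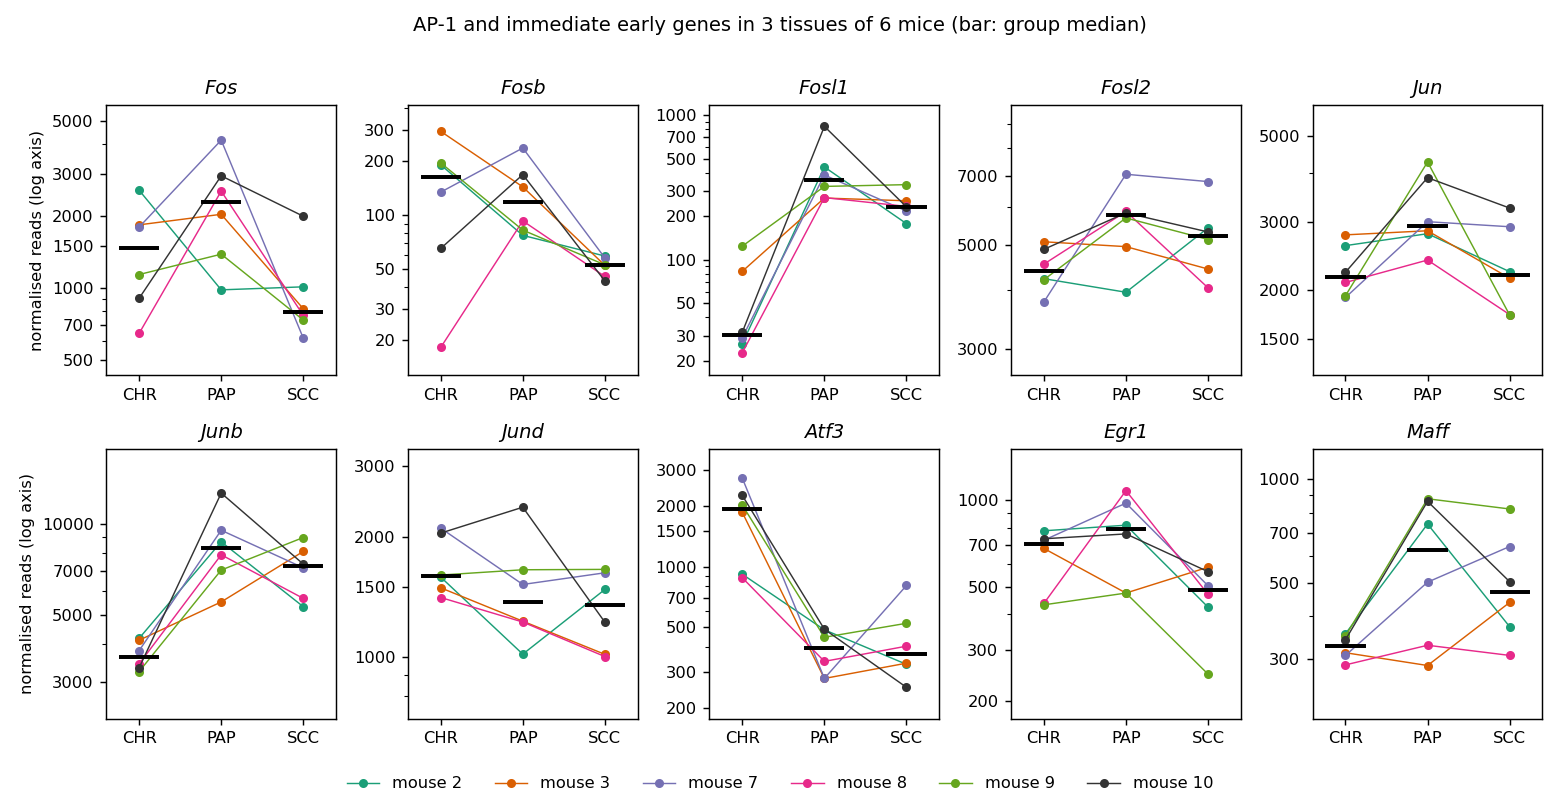
Normalised reads of the 10 genes on log axes in CHR, PAP and SCC. Each line is 1 of 6 mice and each bar a group median; Fosl1 and Junb lay higher, and Atf3 lower, in every PAP and SCC library than in any CHR library.

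Considering papillomas first, 5 of the 10 genes passed an adjusted p of 0.05 in limma in PAP vs CHR, against a background of 52.6% of all genes. Fosl1, Junb, Jun and Maff were higher in PAP, where 23.3% of all genes were, and Atf3 was lower, where 29.3% were. The median change of the 10 was 0.39 on the log2(value + 1) scale and that of all genes was 0.00. Groups did not overlap for 3 of the 10 (Fosl1, Junb and Atf3), compared with 33.6% of all genes (14.4% higher and 19.2% lower), and 4 of 10 moved the same way in all 6 mice, compared with 48.8%. In SCC vs CHR, 4 of 10 passed, against 38.4% of all genes: Fosl1 and Junb higher (15.8% of all genes) and Atf3 and Fosb lower (22.7%). The median was -0.16, and the same 3 genes did not overlap, compared with 19.7% of all genes (8.49% higher and 11.2% lower), while 4 of 10 moved the same way in 6 mice, compared with 38.5%. In SCC vs PAP, 1 of 10 passed (Egr1, lower), against 9.85% of all genes, with 8.75% higher and 1.1% lower, and 2 of 10 moved the same way in 6 mice, compared with 11.3%. The number of genes called was therefore close to the background in each comparison, and the values of the single genes follow. PAP vs CHR and SCC vs CHR share their CHR samples.

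In level per kilobase of exon, the order in CHR was Junb (1609 ± 176 normalised reads per kilobase), Jund (1022 ± 175), Atf3 (825 ± 345), Jun (709 ± 112), Fos (632 ± 304), Fosl2 (460 ± 49.2), Egr1 (141 ± 34.8), Maff (125 ± 10.4), Fosl1 (26.0 ± 20.4) and Fosb (24.0 ± 15.9). From Jund to Fosl2, and from Egr1 to Maff and from Fosl1 to Fosb, neighbours in this order differed by less than the larger of their SDs. Exon length was that of all annotated transcripts together, with 2352 bases for Fos, 9680 for Fosl2, 2033 for Fosl1 and 6243 for Fosb. The order depends on these lengths. In normalised reads, the CHR mean of Fosl2 (4456) was above that of Fos (1486), and that of Fosb (150) above that of Fosl1 (52.9). In PAP, Junb was again first with 3712 ± 1050 and Fosb last with a mean of 21.5, and Fosl1 had 206 ± 105.

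**Figure D2:**
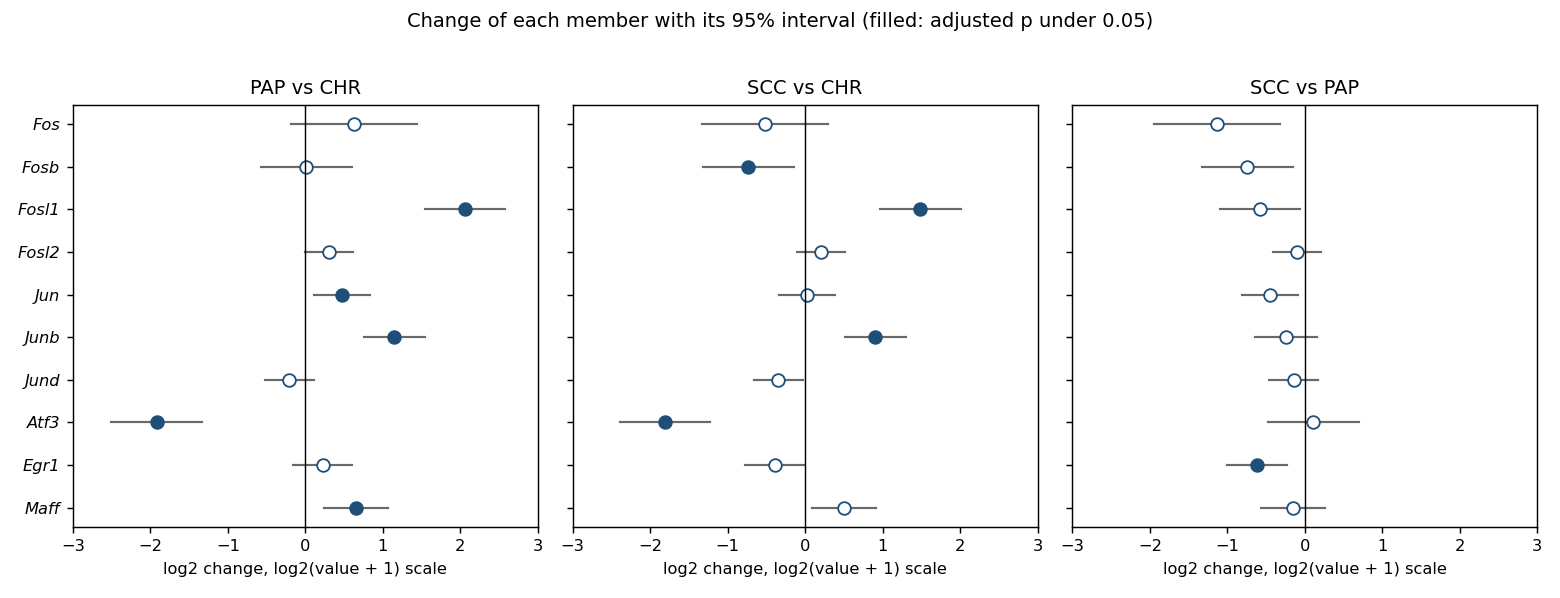
Change of each gene in the 3 comparisons on the log2(value + 1) scale, with its 95% interval from limma and filled circles where the adjusted p was under 0.05. Fosl1 and Junb stand to the right and Atf3 to the left of 0 in both comparisons with CHR; relative to keratinocyte genes Junb was at -0.11 in PAP vs CHR.

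Fosl1 (Fra-1) encodes a FOS protein that lacks the activation domain of Fos and is linked to migration and invasion of epithelial cells. It had 22.8 normalised reads in the lowest CHR library, a median of 30.4 and 124 in the highest. PAP ranged from 267 to 834 with a median of 353, and SCC from 178 to 330 with a median of 233. No PAP or SCC library reached down to the highest CHR value. Mean values were 52.9 ± 41.6 in CHR, 419 ± 214 in PAP and 241 ± 50.8 in SCC (SD, n = 6). Within mice the rise was 2.58-fold to 26.3-fold in PAP and 2.66-fold to 10.2-fold in SCC, in 6 of 6 mice each. On the log2(value + 1) scale this was 2.06 ± 0.24 (SE) in PAP vs CHR (limma adjusted p = 1.68e-05) and 1.49 ± 0.24 in SCC vs CHR (adjusted p = 0.000527). This scale compresses low genes, and on recovered reads limma-voom gave 3.03 and 2.35. Relative to the keratinocyte list, and on the same compressed scale, the rise was 0.80 (adjusted p = 0.0169) in PAP and 0.79 (adjusted p = 0.0291) in SCC. SCC was lower than PAP in 5 of 6 mice by -0.58 (95% interval -1.09 to -0.06, adjusted p = 0.157). Of its exon length (ENSMUSG00000024912.6, chromosome 19, 5447547 to 5455946), 57.2% is shared with Ccdc85b on the opposite strand, whose change in PAP vs CHR was -0.26 (adjusted p = 0.142). Whether counting used the strand was not stated.

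Fos itself, the founding FOS gene and the classical immediate early transcript, varied 3.23-fold to 4.23-fold within a group. CHR ranged from 648 to 2570 normalised reads with a median of 1472, PAP from 985 to 4166 with a median of 2294, and SCC from 619 to 2002 with a median of 796. All 3 groups overlapped. Papillomas were higher than CHR in 5 of 6 mice, with folds from 0.383 to 3.94, and the difference of 0.62 ± 0.38 did not pass (adjusted p = 0.181). SCC was lower than PAP in 5 of 6 mice by -1.14 ± 0.38 (95% interval -1.95 to -0.33), which missed the threshold in limma (adjusted p = 0.0745). Neither difference passed in the main fit, and leaving out a mouse moved the adjusted p either way. Without mouse 8 it was 0.481 in PAP vs CHR in limma, and without mouse 7 it was 0.304 in SCC vs PAP. Without mouse 2, whose papilloma fell to 985 from 2570 in CHR and held the most skeletal muscle reads of the papillomas (31296), PAP vs CHR was 1.01 (adjusted p = 0.0300) and SCC vs PAP -1.37 (adjusted p = 0.0377). With only that papilloma left out, PAP vs CHR was 0.94 (adjusted p = 0.0362) and SCC vs PAP -1.45 (adjusted p = 0.0210). SCC vs PAP also passed without the carcinoma of mouse 10 (-1.36, adjusted p = 0.0319), the SCC library with the highest Fos value and with muscle genes at 555 normalised reads. Relative to keratinocyte genes Fos was lower in PAP than in CHR (-0.63, adjusted p = 0.0392), and in SCC than in CHR (-1.22, adjusted p = 0.00153). On that scale SCC vs PAP was -0.58 and did not pass (adjusted p = 0.0885). Fos lies on chromosome 12, 85473890 to 85477273.

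Fosb, an inducible FOS gene with a strong activation domain, had the lowest level of the family per kilobase, with 24.0 ± 15.9 normalised reads per kilobase in CHR, close to the 26.0 ± 20.4 of Fosl1. It ranged from 18.3 to 295 normalised reads in CHR (median 163), from 77.3 to 238 in PAP (median 119) and from 43.0 to 59.2 in SCC (median 52.7). Carcinomas were thus uniform and low, with a mean of 51.8 ± 6.48 compared with 134 ± 62.6 in PAP and 150 ± 99.5 in CHR. In SCC vs PAP the groups did not overlap, as for 0.413% of all genes (0.255% higher and 0.158% lower), and 6 of 6 mice were lower, yet the change of -0.74 ± 0.27 did not pass (adjusted p = 0.105). That SE is shared with the scattered CHR group, and with only SCC and PAP fitted in limma the adjusted p was 0.0633. Without mouse 7 it was 0.336, and relative to keratinocyte genes the change in SCC vs PAP was -0.19 (adjusted p = 0.510). SCC vs CHR passed narrowly (-0.74 ± 0.27, adjusted p = 0.0477, lower in 5 of 6 mice). That call was lost without the mouse block (adjusted p = 0.0544), when only SCC and CHR were fitted (0.0556), and when mouse 2, 3, 7, 9 or 10 was left out (0.0993, 0.169, 0.0873, 0.130 and 0.0530) or the carcinoma of mouse 10 alone (0.0762). Over all alternatives the adjusted p ranged from 0.000251, relative to keratinocyte genes (-1.44), to 0.169, and on that scale PAP vs CHR passed too (-1.25, adjusted p = 0.000256). Mouse 8 had 18.3 reads in CHR, the lowest of the 18 libraries, and was the mouse with a higher value in SCC.

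Fosl2 (Fra-2), a FOS protein active in the differentiating epidermis, did not pass in any comparison of the limma fit on log2(value + 1). CHR ranged from 3781 to 5070 normalised reads (median 4392), PAP from 3965 to 7046 (median 5766) and SCC from 4051 to 6799 (median 5223). The groups overlapped, and the differences of 0.30 ± 0.14 in PAP vs CHR (95% interval -0.01 to 0.61, adjusted p = 0.0938) and 0.21 ± 0.14 in SCC vs CHR (adjusted p = 0.276) did not pass. PAP vs CHR passed without the papilloma of mouse 2 (0.39, adjusted p = 0.0330), and without mouse 7 it was 0.18 (adjusted p = 0.296). Relative to keratinocyte genes Fosl2 was lower in PAP (-0.96, adjusted p = 0.000414) and in SCC (-0.50, adjusted p = 0.0466).

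Per kilobase of exon, the makeup of the FOS family differed between the groups. The size of each share depends on the exon lengths used, and part of that of Fosl1 is shared with Ccdc85b, as given above. In CHR, Fos made 52.7 ± 12.9% of the family, Fosl2 43.0 ± 13.2%, Fosl1 2.36 ± 1.94% and Fosb 1.96 ± 1.14%. Fosl1 made 12.1 ± 5.74% in PAP and 11.3 ± 3.39% in SCC, and its lowest share in PAP (6.94%) lay above its highest in CHR (6.03%). Fos was 53.1 ± 9.57% in PAP and 37.6 ± 10.6% in SCC, where Fosl2 was the largest part on average with 50.3 ± 9.25%. The family summed to 1142 ± 306 normalised reads per kilobase in CHR, 1800 ± 622 in PAP and 1086 ± 229 in SCC. Such shares are unaffected by a scale common to all genes of a library, keratinocyte-relative scaling included. They can still vary with the cell makeup of the tissue, which differed between the groups, and its part in them was not tested.

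Junb, a JUN protein that often restrains Jun-driven transcription and is abundant in skin, was the JUN gene with the clearest difference. It ranged from 3259 to 4192 normalised reads in CHR (median 3637), from 5521 to 12592 in PAP (median 8299) and from 5326 to 8995 in SCC (median 7253). No tumour library overlapped with CHR. Mean values were 3702 ± 404 in CHR, 8541 ± 2416 in PAP and 7098 ± 1402 in SCC. The change was 1.15 ± 0.18 in PAP vs CHR (adjusted p = 0.000188) and 0.91 ± 0.18 in SCC vs CHR (adjusted p = 0.00207), in 6 of 6 mice each, whereas relative to the keratinocyte list it was -0.11 (adjusted p = 0.684) and 0.21 (adjusted p = 0.461). SCC vs PAP was -0.24 ± 0.18 (95% interval -0.64 to 0.15, adjusted p = 0.460). Junb (ENSMUSG00000052837.6, chromosome 8, 84974484 to 84978718) shares 7.52% of its exon length with Prdx2 on the opposite strand, which changed by 0.16 in PAP vs CHR (adjusted p = 0.398).

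Jun, the JUN subunit that JNK kinases activate, rose modestly in papillomas. CHR ranged from 1917 to 2778 normalised reads (median 2161), PAP from 2393 to 4278 (median 2925) and SCC from 1728 to 3256 (median 2192), so that the groups overlapped. PAP was higher in 6 of 6 mice, by 1.02-fold to 2.21-fold, a change of 0.47 ± 0.17 (adjusted p = 0.0299). The call was lost without mouse 7 (adjusted p = 0.0658), 9 (0.0793) or 10 (0.0864), with a range of 0.00391 to 0.0864 over all alternatives, and relative to keratinocyte genes the sign was reversed (-0.78, adjusted p = 0.00391). SCC was lower than PAP in 6 of 6 mice by -0.45 ± 0.17, which did not pass (adjusted p = 0.109), and SCC vs CHR was 0.02 ± 0.17 (95% interval -0.34 to 0.38, adjusted p = 0.938), or -0.68 (adjusted p = 0.0163) relative to keratinocyte genes.

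Jund is transcribed in most cells at rest and is induced less than its relatives. It ranged from 1409 to 2099 normalised reads in CHR, 1017 to 2367 in PAP and 1003 to 1656 in SCC, with medians of 1594, 1374 and 1349. The differences were -0.21 ± 0.15 in PAP vs CHR (95% interval -0.52 to 0.11, adjusted p = 0.249) and -0.35 ± 0.15 in SCC vs CHR (adjusted p = 0.0756), which passed without the papilloma of mouse 2 in the fit (adjusted p = 0.0488) and without mouse 2 (0.0482). Without mouse 3 the adjusted p in SCC vs CHR was 0.188. Relative to keratinocyte genes Jund was lower in both, by -1.47 (adjusted p = 2.67e-05) and -1.05 (adjusted p = 0.00153). Jund shares 52.6% of its exon length with the antisense gene Gm11175.

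As a share of the JUN family per kilobase, Junb went from 48.2 ± 2.90% in CHR to 65.7 ± 6.11% in PAP and 66.6 ± 5.48% in SCC, and Jund from 30.6 ± 4.78% to 15.98 ± 2.63% and 17.4 ± 3.53%. The ranges in CHR did not overlap with those in the tumours for either gene, with 50.8% as the highest Junb share in CHR and 56.7% as the lowest in PAP. Jun held 21.2 ± 2.52%, 18.3 ± 4.18% and 15.99 ± 3.79%. These shares also depend on the exon lengths used, and 52.6% of that of Jund is shared with Gm11175 on the opposite strand. The part of cell makeup in them was not tested either. The family summed to 3339 ± 277 normalised reads per kilobase in CHR, 5616 ± 1383 in PAP and 4617 ± 707 in SCC.

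**Figure D3:**
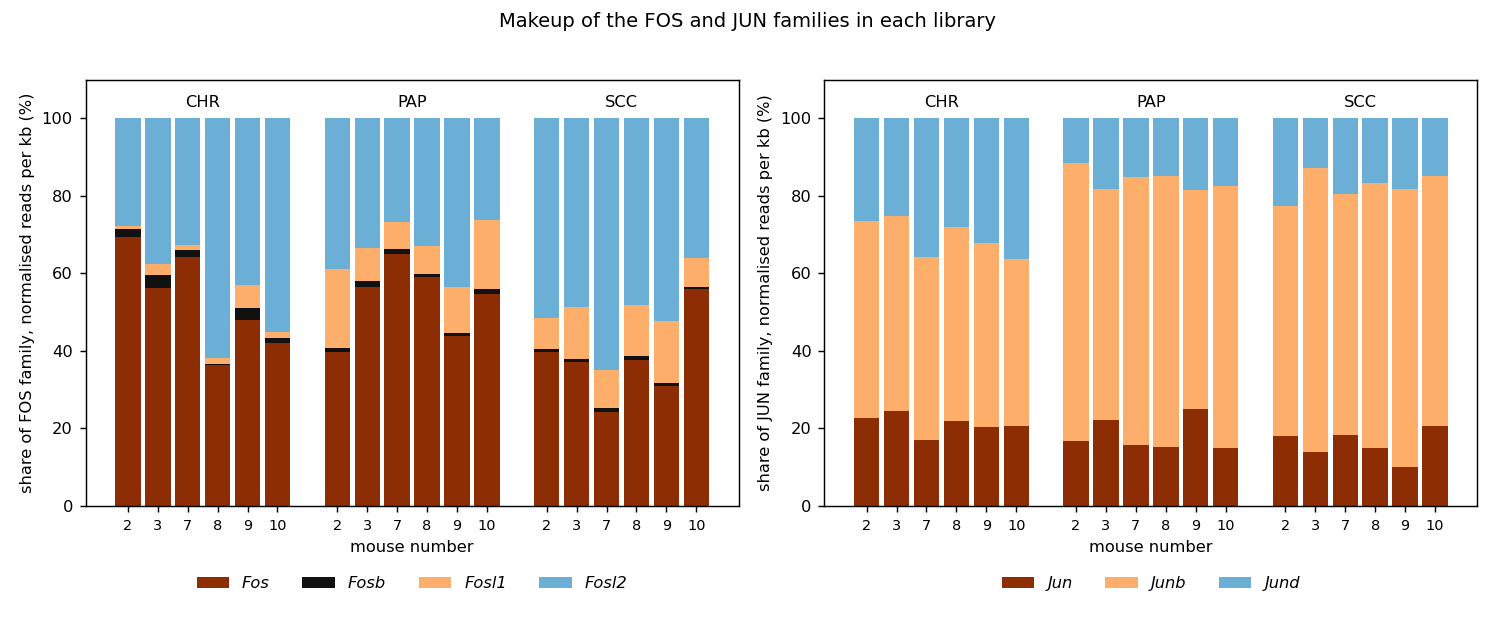
Share of each gene in the FOS family (left) and the JUN family (right), from normalised reads per kilobase of exon, as stacked bars for each of 18 libraries. Fosl1 goes from 2.36% of the FOS family in CHR to 12.1% in PAP, and Junb from 48.2% of the JUN family to 65.7%.

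Atf3 went the other way from Fosl1 and Junb. This stress-induced factor ranged from 881 to 2742 normalised reads in CHR (median 1936), from 279 to 490 in PAP (median 393) and from 253 to 807 in SCC (median 368), and no tumour library reached the lowest CHR value. The mean fell from 1777 ± 743 in CHR to 387 ± 99.5 in PAP and 441 ± 201 in SCC, which was 4.59-fold and 4.03-fold lower. The change was -1.92 ± 0.27 in PAP vs CHR (adjusted p = 7.24e-05) and -1.81 ± 0.27 in SCC vs CHR (adjusted p = 0.000305), lower in 6 of 6 mice each and called under each of 15 alternative settings, relative to keratinocyte genes included (-3.18 and -2.51). SCC vs PAP was 0.11 ± 0.27 (95% interval -0.47 to 0.69, adjusted p = 0.847). Per kilobase, Atf3 had been above Fos and Jun on average in CHR, with 825 ± 345 against 632 ± 304 and 709 ± 112, differences smaller than the SD of Atf3, and in PAP it was below both, with 180 ± 46.2 against 998 ± 488 and 1004 ± 227. Most genes of the muscle, adipocyte, dermal fibroblast, sebaceous, myeloid and T cell lists fell in PAP vs CHR, as given above. Of endothelial genes 5 of 10 fell there, and of neutrophil genes 1 of 10. In SCC vs CHR most genes of the same lists fell, except for dermal fibroblast genes, with 3 of 12. Endothelial and neutrophil genes fell in 1 of 10 and 0 of 10 in SCC vs CHR. A link of these lists with Atf3 was not tested. Atf3 lies on chromosome 1, 191170296 to 191218039.

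Maff, whose dimers with NRF2 and related factors bind antioxidant elements, was tight in CHR and scattered in tumours. It ranged from 288 to 355 normalised reads in CHR (SD 26.9), from 287 to 878 in PAP (SD 264) and from 307 to 820 in SCC (SD 189). In PAP the values of mice 2, 9 and 10 (741, 878 and 863) lay far above those of mice 3 and 8 (287 and 328). The change was 0.65 ± 0.19 in PAP vs CHR (adjusted p = 0.0119, 5 of 6 mice higher), but -0.60 (adjusted p = 0.0527) relative to keratinocyte genes. In SCC vs CHR 6 of 6 mice were higher by 0.50 ± 0.19, which did not pass in limma on this scale (adjusted p = 0.0557) and passed in limma-voom (adjusted p = 0.0407) and without mouse 2 (adjusted p = 0.0403). It did not pass without the mouse block (adjusted p = 0.114), without mouse 9 (0.191) or relative to keratinocyte genes (-0.20, 0.524).

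Egr1, an early transducer of growth and stress signals, was the gene of the 10 that passed between the tumours, a comparison in which 4 of 20 keratinocyte genes fell and 19 of 20 skeletal muscle, 9 of 11 myeloid and 5 of 12 dermal fibroblast genes rose. It ranged from 432 to 782 normalised reads in CHR (median 702), from 475 to 1079 in PAP (median 790) and from 248 to 584 in SCC (median 487), with overlap of all groups. SCC was lower than PAP in 5 of 6 mice by -0.61 ± 0.18 (adjusted p = 0.0455). The call was fragile: it was lost without the mouse block (adjusted p = 0.0980), when only SCC and PAP were fitted (0.107), relative to keratinocyte genes (-0.06, 0.821), and without mouse 2 (0.101), 7 (0.195), 8 (0.125), 9 (0.0987) or 10 (0.0564) or the papilloma of mouse 2 (0.0644), with a range of 0.0393 to 0.821 over all alternatives. PAP vs CHR was 0.22 ± 0.18 (adjusted p = 0.312) and SCC vs CHR -0.39 ± 0.18 (adjusted p = 0.0977). The latter passed without mouse 8 (-0.49, adjusted p = 0.0397), whereas without mouse 2 it was -0.31 (adjusted p = 0.244). Relative to keratinocyte genes both comparisons with CHR passed, at -1.03 (adjusted p = 0.000648) and -1.09 (adjusted p = 0.00114).

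**Figure D4:**
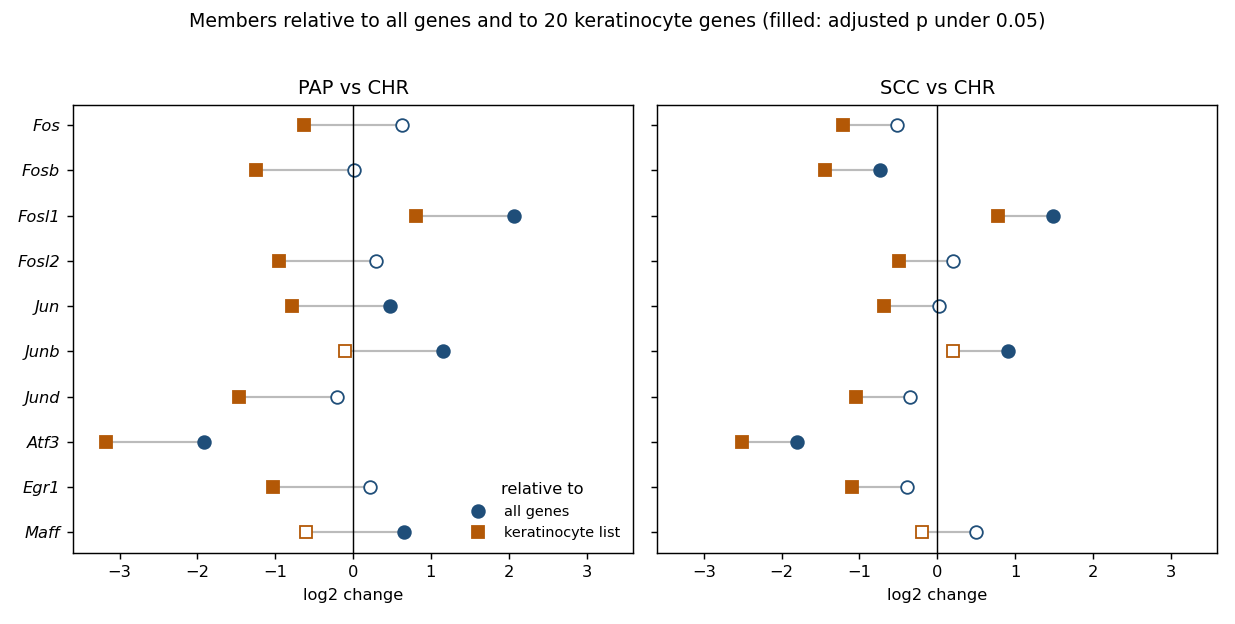
Change of the 10 genes relative to all genes (circles) and to the mean of 20 keratinocyte genes (squares), log2 scale, filled where the adjusted p was under 0.05. Fosl1 stays above 0 and Atf3 below 0 on both scales, whereas Fos, Fosb, Fosl2, Jun, Junb, Egr1 and Maff cross 0 in PAP vs CHR, Junb to -0.11.

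Deviations from the group mean of log2(value + 1), over 18 libraries of 6 mice, described how the genes varied together once group means were removed. Libraries of a group share no tissue but tissues of 1 mouse are related, and cell makeup and depth vary with them, so these coefficients are descriptions. Fos and Fosb had a pooled Pearson's r of 0.66 (Spearman's rho = 0.64), but within CHR it was 0.81, within PAP 0.86 and within SCC -0.60, over 6 libraries each. For Junb and Maff the pooled r was 0.62 (rho = 0.46), with -0.02 in CHR, 0.58 in PAP and 0.81 in SCC. Fosl1 and Junb had a pooled r of 0.57 (rho = 0.54), with -0.20 in CHR, 0.88 in PAP and 0.83 in SCC. Between Fos and Fosl1 it was 0.07 (rho = 0.04), and between Fos and Atf3 -0.31 (rho = -0.34), with 0.08 in CHR, -0.56 in PAP and -0.79 in SCC. The pooled values thus did not hold in every group. Of 11073 genes with a mean value of at least 200, those most like Fos included Sfn (r = 0.77), which is on the keratinocyte list, and Slc6a20a (r = 0.73), and those most like Fosl1 were Cpne1 (r = 0.78), Zfp64 (r = 0.76) and Ralb (r = 0.76).

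Signals reach AP-1 through MAP kinases and through SRF and its ternary complex partners, which switch on Fos and Egr1. Of 23 measured kinases and factors of this route, 7 rose and 4 fell in PAP vs CHR, where 52.6% of all genes were called, and 3 rose and 2 fell in SCC vs CHR, where 38.4% were. Relative to keratinocyte genes 0 rose and 22 fell in PAP, as did 91.6% of all genes. Map2k1 (MEK1), which activates ERK, was higher by 0.69 ± 0.10 in PAP (adjusted p = 9.97e-05), Elk3 by 0.79 ± 0.16 (adjusted p = 0.00142) and Srf by 0.53 ± 0.12 (adjusted p = 0.00217), whereas relative to keratinocyte genes they were at -0.57, -0.47 and -0.72. Mapk3 (ERK1) was lower by -0.47 ± 0.09 (adjusted p = 0.00109), Mapk9, a JNK kinase, by -0.34 (adjusted p = 0.0252) and Rps6ka3, a kinase downstream of ERK, by -0.31 (adjusted p = 0.0200). The calls of Mapk9 were lost without mouse 3, 7, 8 or 9 (adjusted p = 0.0642 to 0.0800) and those of Rps6ka3 without mouse 2 (0.0787) or 7 (0.0738). In SCC vs PAP 0 of 23 passed in limma, with 5 at an unadjusted p under 0.05, and 0 in limma-voom.

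The other immediate early genes followed no single direction. Of 40 measured, 11 rose and 6 fell in PAP vs CHR, beside 23.3% and 29.3% of all genes, and 8 rose and 7 fell in SCC vs CHR, beside 15.8% and 22.7%. In SCC vs PAP 0 rose and 2 fell, beside 8.75% and 1.1% of all genes (Ppp1r15a, which restarts translation after stress, and Zfp36l2, which binds AU-rich elements). Both lost their call without mouse 2, 3, 7 or 8, with adjusted p up to 0.154 and 0.135, and Ppp1r15a also without mouse 9, and relative to keratinocyte genes they were at -0.03 and 0.01. Ier3, a survival factor, went from 943 ± 143 normalised reads in CHR to 4098 ± 2116 in PAP (change 1.90 ± 0.27, adjusted p = 7.82e-05) and 2961 ± 929 in SCC. Arc and Myc rose by 1.45 and 1.15 in PAP. Relative to keratinocyte genes these 3 calls in PAP were lost, with Ier3 at 0.64 (adjusted p = 0.0986), Arc at 0.19 (0.533) and Myc at -0.11 (0.638). Egr2, Klf2 and Gadd45g fell in PAP. Egr2, a zinc finger relative of Egr1, went from 1787 ± 683 to 246 ± 229 normalised reads (-2.73 ± 0.47, adjusted p = 0.000367). Klf2 changed by -1.11 and Gadd45g by -0.78 (adjusted p = 0.00322). In SCC vs CHR Egr2, Egr3 and Nr4a3 fell by -2.49, -1.11 and -0.91, of which Egr3 did not pass without mouse 3 (adjusted p = 0.0513). Relative to the keratinocyte list 0 of 40 rose and 33 fell in PAP, where 91.6% of all genes fell.

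Other bZIP factors can pair or compete with AP-1 subunits. Of 22 measured, 4 rose and 8 fell in PAP vs CHR, where 23.3% of all genes rose and 29.3% fell. In SCC vs CHR 2 rose and 7 fell, beside 15.8% and 22.7% of all genes, and in SCC vs PAP 2 rose and 0 fell, beside 8.75% and 1.1%. Relative to keratinocyte genes 0 rose and 22 fell in PAP, a scale on which 91.6% of all genes fell. Atf4, of the integrated stress response, was at 3522 ± 342 normalised reads in CHR and 5488 ± 1545 in PAP (0.59 ± 0.12, adjusted p = 0.00154, but -0.67 relative to keratinocyte genes). Nfe2l2 (NRF2), a partner of small MAF proteins, rose by 0.60 in PAP and 0.77 in SCC (adjusted p = 0.0371 and 0.0157), whereas relative to keratinocyte genes it was at -0.66 and 0.07. The call of Nfe2l2 in PAP was lost without mouse 3, 7, 8, 9 or 10 (adjusted p = 0.0575 to 0.120), and that in SCC without mouse 8 (0.0518). Batf, best known from lymphocytes, fell from 132 ± 24.0 to 26.7 ± 10.97 normalised reads in PAP (-1.22 ± 0.11, adjusted p = 2.00e-06), and was higher in SCC than in PAP by 0.55 (adjusted p = 0.0113), a call lost without mouse 7 (0.0726) or 8 (0.0858). Bach2, which also acts in lymphocytes, fell by -1.03 in PAP (adjusted p = 3.75e-05), beside the T cell and myeloid lists, of which 10 of 11 each fell. Batf3 fell by -0.93 in PAP (adjusted p = 4.1e-05). In SCC vs CHR the largest fall of the 22 was that of Cebpa (-0.99, adjusted p = 0.0151), a call lost without mouse 3 (0.0663).

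Genes listed here as widely described AP-1 targets were largely higher in both tumours. The list was chosen with earlier results of these data known, so its counts describe these genes and do not test AP-1 targets as a class. From motif analysis in both species, the paper reports predicted AP1 targets as reduced along the sequence. Its targets were defined by motifs and are not this list. Of 26 measured, 17 rose and 2 fell in PAP vs CHR, where 23.3% of all genes rose and 29.3% fell, with a median change of 1.22, and 17 rose and 2 fell in SCC vs CHR (median 0.87), where 15.8% and 22.7% did. Relative to the keratinocyte list 9 rose and 10 fell in PAP (median -0.04) and 11 rose and 6 fell in SCC, compared with 0.585% and 91.6%, and 1.23% and 65.3%, of all genes. Without the carcinoma of mouse 10, 13 rose in SCC vs CHR. Mmp13, a collagenase, went from 1024 ± 961 to 11209 ± 2795 normalised reads in PAP (3.74 ± 0.59, adjusted p = 0.000177), Mmp10 changed by 3.35 (adjusted p = 0.000193) and Ptgs2 (COX-2) by 3.32 (adjusted p = 0.000271), each in 6 of 6 mice, and relative to keratinocyte genes they were at 2.48, 2.09 and 2.07. Lcn2 fell by -2.07 in PAP (adjusted p = 0.000152) and Timp1 by -1.51 (adjusted p = 0.0268, and 0.0577 without mouse 3). In SCC vs CHR S100a8 and S100a9 rose by 2.62 and 2.73, but these genes are abundant in neutrophils and stand on that list too, and Lor, a protein of the cornified envelope, fell by -2.65 (adjusted p = 0.0141). In SCC vs PAP 0 of 26 passed in limma, with 2 at an unadjusted p under 0.05, and 1 in limma-voom (Timp1, named after its value was seen).

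**Figure D5:**
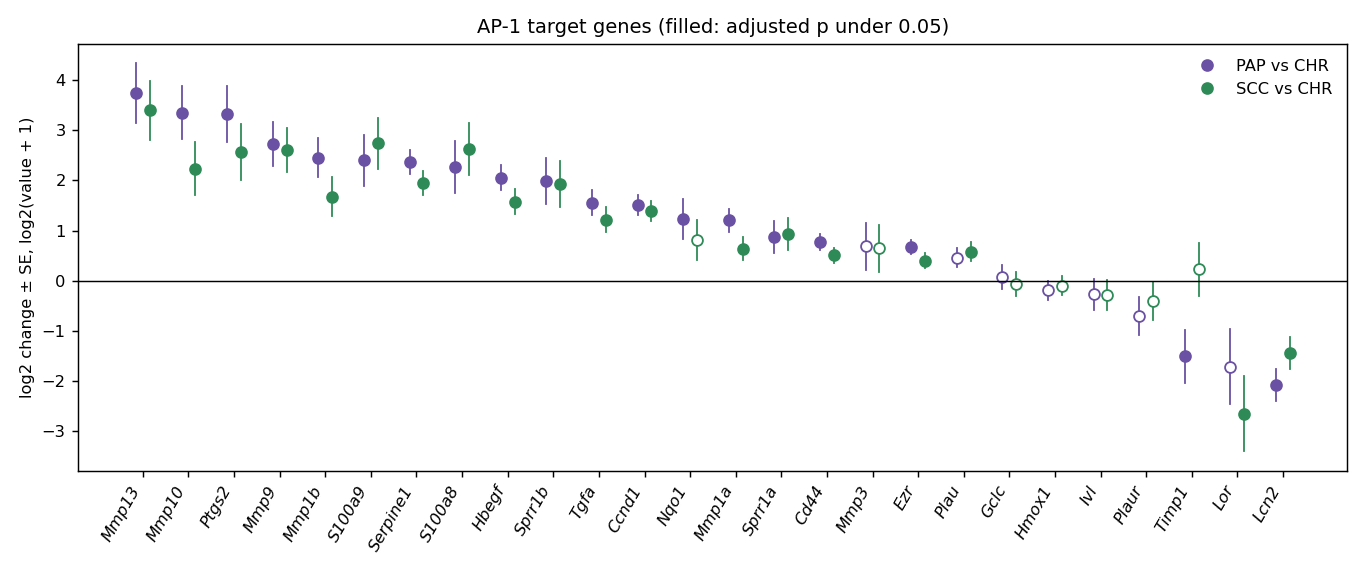
Change of 26 AP-1 target genes on the log2(value + 1) scale in PAP vs CHR and SCC vs CHR, which share their CHR samples, ordered by the first; bars are SE and filled circles have an adjusted p under 0.05. Matrix metalloproteinases and Ptgs2 head the order and Lcn2 ends it; relative to keratinocyte genes the median in PAP is -0.04.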

How the data were processed

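Reads aligned to mm10 (GRCm38) were counted with HTSeq by the authors and then scaled and stabilized for variance. What they deposited is a rounded expression score on a linear scale, in which 0 reads stand at 39. Strandedness of the counting is not given in the sources used here. The transformation was inverted with a zero level of 39.12, which gave whole reads for 99.2% of values, size factors of 0.8345 to 1.18 and 15.4 to 21.0 M reads per library. Intervals from limma reflect the spread left after the group and mouse terms, shared by the 3 groups, so a gene has 1 SE for all comparisons. In the map of samples, 0 columns were left unmapped. Of 14542 entries, 21 carried a number for a symbol and were left out.

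limma (version 3.58.1, R 4.3.3) was fitted to log2(value + 1) of 14521 genes in all 18 libraries, with group and mouse as terms, and p-values, two-sided, were Benjamini-Hochberg adjusted over all genes with a threshold of 0.05. Group and mouse number came from the sample titles. A number marks 1 mouse, so the mouse was kept as a block, although correlations of same-mouse deviations ranged from -0.24 to 0.51. Tested on simulated data for PAP vs CHR (14521 genes, 200 changed), the fit recovered 46% of 2-fold and 82% of 4-fold changes with 8.57% false calls. Those genes were simulated independently of each other and without a shift in tissue makeup. In the data 52.6% of genes were called in this comparison, so these rates do not carry over to it. Alternatives were no block, only the groups compared, limma-voom on recovered reads, other scales, filters and priors, a keratinocyte reference and leaving out each mouse. The other 2, leaving out 1 library each (the papilloma of mouse 2 or the carcinoma of mouse 10), were chosen after seeing the data.

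The genes and lists were chosen with earlier results of these data known. All 10 genes are named. From each of 4 wider lists, the rule named up to 3 genes with the largest rise and 3 with the largest fall among those called in each comparison with CHR, and 2 each way in SCC vs PAP. Not every gene picked by this rule is described in the text. Gene models are GENCODE M21, and promoter windows are RefSeq for GRCm38. A gene among those most like Fos is not reported here.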

Additional observations from a re-analysis of the deposited data

Results flagged for a closer look

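In each group of 6, the extreme library's gap to its neighbour was set against the group's range, for 10 genes in 3 groups (30 tests). Chance flags about 1 group in 20. Fos in the carcinoma of mouse 10 had 2002 normalised reads, when the other carcinomas had 619 to 1014, a gap of 0.714 of the range (critical value 0.625). Fosl1 in the papilloma of mouse 10 had 834 normalised reads, when the other papillomas had 267 to 437, a gap of 0.699 of the range.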

How the results depend on the processing

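Of the 480 changes of the 10 genes under the 16 alternatives other than the keratinocyte reference, 430 kept their direction and side of the threshold, 24 lost a call, 16 gained one and 10 changed sign. Fosl1, Junb and Atf3 kept their calls in both comparisons with CHR in all of these. The cause of a change was not tested unless its construction shows it.

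With the keratinocyte reference, which by construction subtracts the rise of that list, 13393, 9657 and 5446 of all genes, 8, 8 and 0 of the 10 genes and 104, 82 and 25 of the genes on the 5 lists (the 10 included) were called in PAP vs CHR, SCC vs CHR and SCC vs PAP, compared with 7639, 5583 and 1430, with 5, 4 and 1, and with 64, 52 and 5 as reported. On that reference the sign changed in PAP vs CHR for Fos (-0.63), Fosb (-1.25), Fosl2 (-0.96), Jun (-0.78), Junb (-0.11), Egr1 (-1.03), Maff (-0.60), Nfe2l2 (-0.66), Atf4 (-0.67), Mafg (-0.94), Myc (-0.11), Elk3 (-0.47), Map2k1 (-0.57) and Srf (-0.72). It changed in SCC vs CHR for Fosl2 (-0.50), Jun (-0.68), Maff (-0.20), Atf4 (-0.27), Map2k1 (-0.24) and Srf (-0.32), and in SCC vs PAP for Fosl2 (0.46), Jun (0.10), Junb (0.31), Jund (0.42), Maff (0.40) and Zfp36l2 (0.012).

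Calls in SCC vs PAP depended most on the fit. Over all genes there were 810 without the mouse as a block, and 0 when only SCC and PAP were fitted, with 2830 at an unadjusted p under 0.05. Without replicate numbers in turn the count ranged from 0 (without mouse 7 or 8) to 1995 (without mouse 10), with 471 without mouse 3, and it was 2084 without the carcinoma of mouse 10 alone. Of the 10 genes 0 were called without the block, in the fit of SCC and PAP, on log2(normalised reads + 1), on log2(CPM + 1) and relative to keratinocyte genes, 0 to 1 without each mouse, and 2 without the carcinoma of mouse 10. Of the listed genes 0 were called in the fit of SCC and PAP, 9 in limma-voom, 0 to 10 without each mouse, 11 without the carcinoma of mouse 10 and 9 without the papilloma of mouse 2. Leaving out a mouse gave 6545 to 7319, 4 to 6 and 51 to 61 calls in PAP vs CHR and 4214 to 5482, 3 to 5 and 38 to 50 in SCC vs CHR.

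Small changes with a sign that turned elsewhere were those of Fosb in PAP vs CHR (-0.060 in limma-voom, -0.00249 on log2(value + 16), -0.20 to 0.18 without each mouse), Jun in SCC vs CHR (-0.093 to 0.096 without each mouse, -0.05 without the carcinoma of mouse 10), Jund in SCC vs PAP (-0.27 to 0.015 without each mouse) and Atf3 in SCC vs PAP (-0.13 to 0.29 without each mouse, 0.30 without the carcinoma of mouse 10). Without the block Fosb in SCC vs CHR and Egr1 in SCC vs PAP lost their calls, and no other call of the 10 genes changed. At this depth the lowest libraries held 18.3 normalised reads of Fosb and 22.8 of Fosl1.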
